A study of Mus musculus with 6 samples.

Results

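The Bbs9 and Bmper locus of mouse chromosome 9 was examined in lists of open chromatin regions that differ between FOP mutant and wild-type mouse embryonic fibroblasts. FOP, fibrodysplasia ossificans progressiva, turns muscle, tendon and ligament into bone in episodes through life. The listed regions were chosen by position: all those on chromosome 9 with a midpoint from 22375559 to 23585215 (GRCm38), which takes in both genes, the gap between them and 100 kb on either side. The rule found 9 of 3521 listed regions, all of them on the list of regions more accessible in mutant cells (9 of 2965) and none on the list of less accessible regions (0 of 556). The locus was selected on the number of listed regions that it holds, so that number and its direction are given as a description, without a test.

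Accessibility had been measured by ATAC-seq, in which a transposase inserts sequencing adapters into DNA that is not covered by nucleosomes. There were 3 wild-type libraries (Acvr1+/+) and 3 mutant libraries (Acvr1R206H/+), from fibroblasts of E13.5 embryos grown under the same culture conditions, with no treatment named in the labels. The receptor that Acvr1 encodes, ALK2, binds BMP and activin ligands; mutant cells carry the R206H change on 1 of its alleles, and the labels name no Cre or promoter that would limit it to some cells. The series' design text calls the 3 libraries of a genotype biological replicates; whether each came from its own embryo is not said. The lists give positions only. Values per library, fold changes, p-values and depth were not used here, so the spread between replicates does not enter any value below.

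The proteins that the genes encode have different roles. Bmper, the vertebrate crossveinless-2, encodes a secreted protein with von Willebrand factor type C repeats that binds BMP ligands outside the cell and, depending on its amount and partners, restrains or promotes their signalling. Bbs9, also known as parathyroid hormone-responsive B1, encodes a subunit of the BBSome, the coat-like complex that carries membrane proteins in and out of the primary cilium, and is mutated in Bardet-Biedl syndrome. ATAC-seq regions inside introns or between genes often mark distal regulatory elements, but position alone does not say which gene, if any, such an element acts on.

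Bbs9 spans 413 kb (chromosome 9, 22475559 to 22888283) and Bmper 262 kb (23223076 to 23485215), both transcribed toward higher coordinates and separated by 335 kb. No region fell in the 100 kb before Bbs9, 5 fell inside Bbs9, 1 in the gap, 2 inside Bmper and 1 in the 100 kb after Bmper. Bbs9 makes up 34.1% of the window and held 55.6% of its regions, whereas the gap makes up 27.7% and held 11.1%. Per 100 kb this was 1.21 regions in Bbs9, 0.763 in Bmper, 0.299 in the gap and 1.00 in the flank after Bmper. With neighbours within 10 kb merged and counted once, Bbs9 held 3, or 0.727 per 100 kb, below the 0.763 of Bmper and the 1.00 of the flank, so the order of these places depends on how close neighbours are counted. The annotation used gives gene spans without exons, so whether a region lies in an exon or an intron was not determined.

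**Figure D1:**
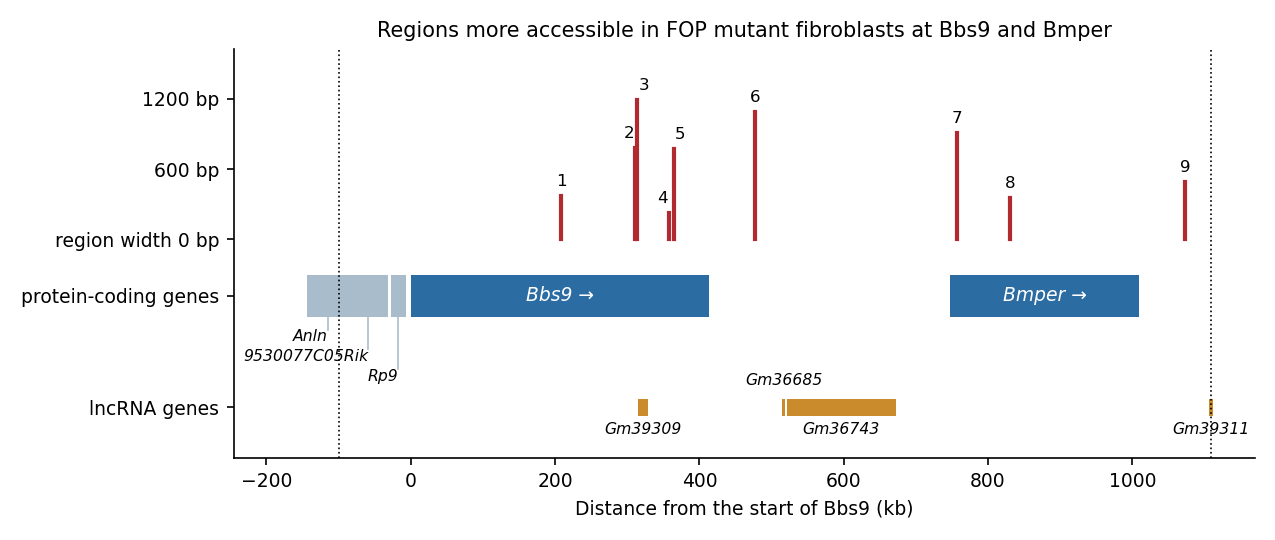
Map of the locus against the distance from the start of Bbs9 in kb. Red lines are the 9 more accessible regions, numbered in genome order, with their height giving the region width in bp; boxes are protein-coding genes (blue and grey) and long noncoding RNA genes (orange), arrows show the direction of transcription and dotted lines the limits of the window. Regions 1 to 5 lie in the second part of Bbs9, region 6 in the gap and regions 7 and 8 in the first part of Bmper.

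The promoters of both genes lay apart from the listed regions. Their sequence is shown because it borders the starts of the gene spans, from which distances in the paragraphs below are measured. In the RefSeq promoter table of GRCm38.p6 (from 250 bases before to 50 after a transcript's start) each gene has 1 window, chr9:22475465-22475764 for Bbs9 and chr9:23222826-23223125 for Bmper. No listed region overlapped either window. The nearest midpoint was 208 kb from the transcript start of Bbs9 and 9.69 kb from that of Bmper. The transcript start of Bbs9 (22475715) lies past the start of its gene span (22475559), whereas that of Bmper is the start of its span. The stretches of these windows that precede the annotated gene spans read as follows on the plus strand, 5′ to 3′, with CpG dinucleotides in capitals, for 94 bases of chr9:22475465-22475558 and 250 bases of chr9:23222826-23223075.
Bbs9: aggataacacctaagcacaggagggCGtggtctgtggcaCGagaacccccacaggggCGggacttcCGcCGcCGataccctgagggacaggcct
Bmper: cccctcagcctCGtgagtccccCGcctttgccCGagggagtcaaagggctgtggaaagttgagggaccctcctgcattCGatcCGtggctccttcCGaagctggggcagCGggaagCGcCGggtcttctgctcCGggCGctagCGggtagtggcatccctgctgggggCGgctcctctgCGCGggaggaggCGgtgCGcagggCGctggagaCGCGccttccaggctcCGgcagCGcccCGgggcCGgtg
The printed stretches hold 6 and 24 CpG dinucleotides.

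Both promoter windows were rich in G and C. The GC content of the 300 bases was 62.7% at Bbs9 and 72.7% at Bmper, at the 70.3rd and 92.4th percentile of 21263 promoter windows of protein-coding genes (median 56.3%). They held 23 and 31 CpG dinucleotides, against a median of 13. Searched on both strands, neither window held the letters TGAGTCA of AP-1 factors (in 4.66% of all windows), GGAATG of TEAD factors (13.6%), TGTGGT of RUNX factors (15.0%), CAGATG, an E-box (14.6%), or GTCTAGAC, a palindromic SMAD element (0.226%). The GC-rich SMAD letters GGCGCC occurred once at Bbs9, at base 111 of the window and so outside the printed stretch, and not at Bmper; 15.3% of all windows hold them. As the GGCGCC at Bbs9 was the only match in either window, no overlap between motifs could arise. The sequence under the 9 regions themselves was not used here.

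Inside Bbs9 the regions lay past the middle of the gene, away from its promoter. Region 1 (22683784 to 22684151) lay 208 kb past the start of the gene, at 50.5% of its span. Region 2 (22786075 to 22786856) and region 3 (22788857 to 22790046) lay at 75.3% and 76.1%, with midpoints 2.99 kb apart. Region 4 (22833582 to 22833804) and region 5 (22839485 to 22840252) lay at 86.8% and 88.3%, with midpoints 6.18 kb apart. All 5 were thus beyond 50% of the span and 4 of 5 beyond 75%. The 4 beyond 75% form the close pairs just given, and with neighbours within 10 kb merged Bbs9 held 3 regions, not 5. For comparison, 1078 placings of more accessible regions inside genes whose strand the promoter table gives were taken. Of these, 56.5% lay beyond 50% of the span, counted from the 5′ end, and 26.8% beyond 75%. A region inside more than 1 such gene counts in each, and the regions of Bbs9 and Bmper are included.

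The regions in Bbs9 came near a second gene within it. Region 3 ended 0.995 kb before the lower end of Gm39309, a long noncoding RNA gene (22791041 to 22805005) that RefSeq places inside Bbs9. The strand of Gm39309 was not used here, so which of its ends region 3 faces is left open. Region 2 lay 4.19 kb and regions 4 and 5 lay 28.6 kb and 34.5 kb from the same gene. No region overlapped Gm39309 or any RefSeq gene in the window other than Bbs9 and Bmper. The window holds 5 protein-coding genes, 4 long noncoding RNA genes, 2 pseudogenes and 1 small nucleolar RNA gene.

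The regions of Bmper lay toward its start. Region 7 (23232309 to 23233217) was 9.69 kb past the start of Bmper, at 3.70% of the span, and region 8 (23305555 to 23305908) was 82.7 kb past it, at 31.5%. The last 179 kb of the gene, after region 8, held no listed region. Region 9 (23548920 to 23549408) lay 63.9 kb past the end of Bmper and 31.9 kb before Gm39311, a long noncoding RNA gene. Region 9 was 36.1 kb inside the upper limit of the window, and the next listed region on that side was 178 kb beyond it, so the upper limit passes through a stretch without regions.

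The gap held a single region. Region 6 (22952390 to 22953471) was 64.6 kb past the end of Bbs9 and 270 kb before the start of Bmper, and 36.7 kb from the long noncoding RNA gene Gm36685. From region 6 to region 7 no region was listed over 280 kb, the longest such interval between neighbouring regions in the window. That interval includes Gm36743, a 151 kb long noncoding RNA gene (22996434 to 23147606). Among 423 other gaps between neighbouring protein-coding genes of 268 to 418 kb, 31.7% held at least 1 more accessible region, the median was 0 and the highest was 6. A gap of this length with a region in it was thus not unusual.

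By the linking rule used here, in which a region belongs to the protein-coding gene that holds its midpoint or else to the nearest within 100 kb, region 6 went to Bbs9 and region 9 to Bmper. Bbs9 then had 6 linked regions and Bmper 3. Across 21887 protein-coding genes 7.22% had at least 1 linked more accessible region. The other protein-coding genes that reach into the window had none in either direction. They are Anln, which encodes the actin-binding cytokinesis protein anillin, Rp9, which encodes a protein tied to RNA splicing and to retinitis pigmentosa, and 9530077C05Rik. Zfp810, a zinc finger gene 67.7 kb before the window, also had none. Npsr1, the neuropeptide S receptor gene 513 kb past the window, had 1 more accessible region, which lies outside its span.

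The regions differed widely in width. In genome order they measured 368, 782, 1190, 223, 768, 1082, 909, 354 and 489 bp, with a median of 768 bp, against a median of 572 bp over all 2965 more accessible regions (25th to 75th percentile 439 to 762 bp). Region 3 in Bbs9 and region 6 in the gap were over 1000 bp, a width reached by 7.62% of more accessible regions, and stood at the 97.8th and 95.3rd percentile. Region 4 in Bbs9, at 223 bp, stood at the 0.944th percentile. In both close pairs of Bbs9 the members were unequal, 782 beside 1190 bp and 223 beside 768 bp. Together the 9 regions covered 6165 bp, which is 0.510% of the window. A width is set by the authors' peak calling, and the size of the change is not known from it.

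**Figure D2:**
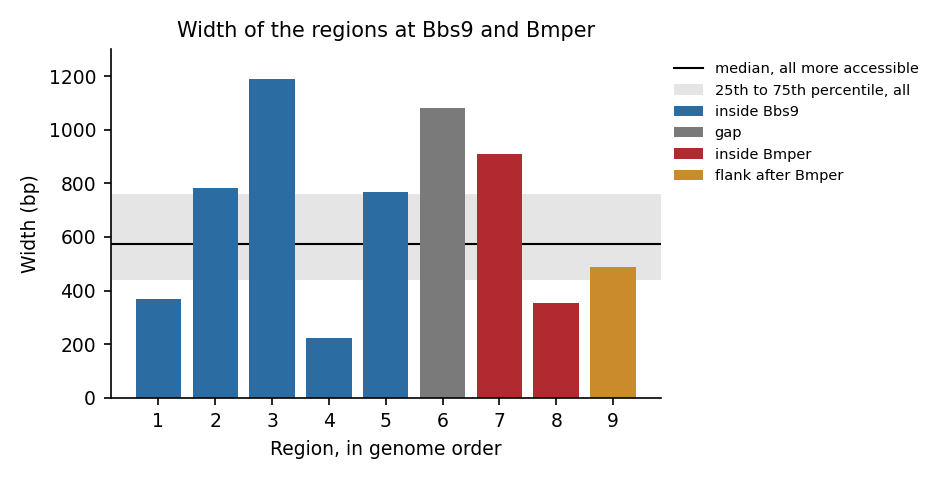
Width in bp of each of the 9 regions, numbered in genome order and coloured by place. The black line and the grey band give the median (572 bp) and the 25th to 75th percentile of all 2965 more accessible regions; regions 2, 3, 5, 6 and 7 rise above the band, and regions 1, 4 and 8 stay below it.

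Among the 9 regions were 2 close pairs. The pairs 2 and 3, and 4 and 5, put 4 of 9 regions within 10 kb of a neighbour (44.4%), against 345 of 2965 (11.6%) over the whole more accessible list. With a limit of 5 kb only the pair 2 and 3 counted, 2 of 9 regions. The locus was picked for its density, which favours close spacing, so these shares are a description. The median distance to the nearest neighbour was 73.0 kb in the window and 121 kb over the list. The other intervals, in genome order, were 102 kb from region 1 to region 2, 44.2 kb from region 3 to region 4, 113 kb from region 5 to region 6, 73.0 kb from region 7 to region 8 and 243 kb from region 8 to region 9. Regions 1 to 6 lay within 269 kb. Of the 2965 more accessible regions, 31 began a stretch of that length holding at least 6 regions, region 1 included. Stretches from neighbouring regions can overlap, so the 31 need not be separate places. Over all 2965 starts the median stretch held 1 and the fullest 8. Regions within a close pair may be parts of 1 broader open stretch, since how neighbouring peaks were joined is not given in the sources used here.

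All 9 regions were on the more accessible list, as were 84.2% of all listed regions, and nothing is read from that direction. The window held 7.44 regions per Mb, against 1.48 on the remainder of chromosome 9 and 1.35 over chromosomes 1 to 19 and X. Windows of the same width, moved in steps of 100 kb, held a median of 1 more accessible region. Of 25768 such windows, 43.6% held none and 0.652% held 9 or more. The windows with 9 or more formed 29 separate stretches on 15 chromosomes, this locus being 1 of them, and the fullest held 13. The locus was proposed because it is dense, so its place in that order is a description.

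**Figure D3:**
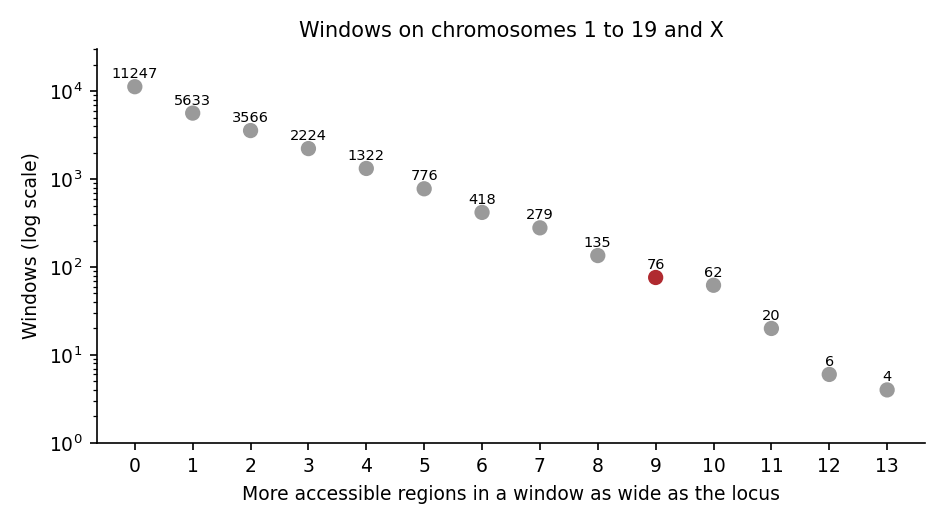
Number of windows (log scale) by the number of more accessible regions they hold, for windows as wide as the Bbs9 and Bmper locus moved in steps of 100 kb over chromosomes 1 to 19 and X. Each point is labelled with its number of windows; the red point marks 9 regions, the count at the locus, and counts go up to 13.

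Set against genes of like length, Bbs9 held many regions and Bmper a count that other genes share. A longer gene has more room for regions, so genes were compared within a band of lengths. Of 258 other genes with spans of 330 to 516 kb, the median held 0 more accessible regions, 153 held none, and 1 (0.388%) held 5 or more. For Bmper, 55 of 447 other genes of 210 to 328 kb (12.3%) held at least 2. Over 21631 protein-coding genes, 0.0925% held at least 5 regions inside and 1.18% at least 2. Of the 20 genes with at least 5, Bbs9 was 7th by regions per 100 kb. The locus was proposed because it is dense, so the shares and rank of Bbs9 are a description. When neighbours within 10 kb were merged and counted once, Bbs9 held 3, and 16 of the 258 genes of like length (6.20%) held 3 or more; the 2 close pairs each count once there.

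The genes nearest in length show the same spread. Next to Bbs9 in length were Maml2, a coactivator of Notch signalling, with 1 region inside, Creb5, a CREB family transcription factor gene, with 2, Samd5 with 1, and Oxr1, an oxidation resistance gene, and Klhl1, a kelch-like gene, with 0 each. Next to Bmper were Frmd5, a FERM domain gene, with 3, Chn2, a Rac-inactivating chimaerin gene, with 1, Pitpnc1, a phosphatidylinositol transfer protein gene, with 1, and Stk39, a kinase gene, and Ppp1r9a, the neurabin gene, with 0 each. None of these 10 genes held a less accessible region. Such regions are few in genes of these lengths. Of the 258 other genes of like length to Bbs9, 6.59% held one, and of the 447 for Bmper, 4.25%. Bbs9 held more regions than each of the 5 genes nearest to it in length, whereas the count of Bmper fell within the range of its own 5.

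**Figure D4:**
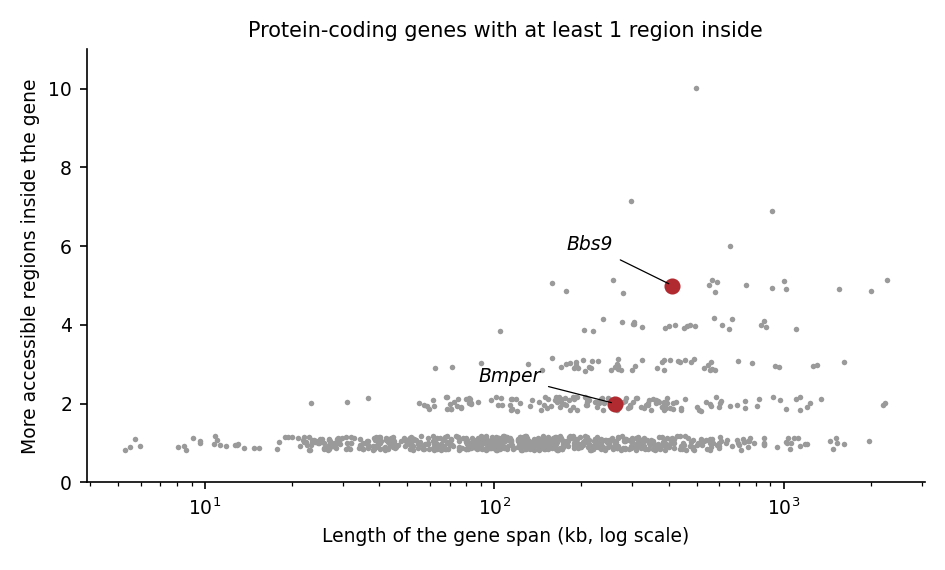
Number of more accessible regions inside each protein-coding gene that holds at least 1, against the length of its span in kb (log scale); grey points are shifted slightly up or down so that they do not hide each other. Bbs9 (413 kb, 5 regions) lies high among genes of its length, and Bmper (262 kb, 2 regions) lies among many others.

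Neighbouring genes that both hold several regions were rare. Among 19608 pairs of neighbouring protein-coding genes whose spans do not overlap, 12 (0.0612%) held at least 2 more accessible regions in each gene, Bbs9 and Bmper among them. With 7 regions inside the 2 genes, the pair came after Robo1 and Robo2, the axon guidance receptor genes with 5 each, and Kif26b and Smyd3 with 3 and 5, and beside Dock4 with Immp2l and Filip1l with Col8a1, at 4 and 3 each. The rule for named genes does not take these 4 pairs, which were picked once their values were known. Within them the genes are 19.1 to 844 kb apart, against 335 kb at Bbs9 and Bmper. The 19608 pairs were not matched for gene length, and a longer gene has more room for regions. Since the locus was proposed because it is dense, the place of Bbs9 and Bmper among the 12 pairs is a description.

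Bmper was set beside other modulators of BMP signalling. Of 32 modulator genes, Bmper included, 5 had a linked more accessible region (15.6%, against 7.22% of all protein-coding genes) and 1 a less accessible one (3.13%, against 1.99%). Without Bmper it was 4 of 31 (12.9%). Bmper, with 3, was the only one of the 32 with more than 1 more accessible region at this limit of 100 kb. With links within 10 kb, 3 of the 32 genes had one (9.38%, against 4.98% of all genes) and Bmper had 2. With links at any distance it was again 5 genes (15.6%, against 8.39%), with 4 regions at Bmper and more than 1 at Rgma too. Regions linked to the list in both directions together numbered 8 at 100 kb, 4 at 10 kb and 13 at any distance. Tll1, which encodes a tolloid-like protease that cleaves the BMP antagonist chordin, and Htra1, a secreted serine protease gene, had 1 each inside the gene. Bambi, a pseudoreceptor gene, had 1 at 84.7 kb, and Rgma, a membrane-anchored BMP co-receptor gene, had 1 more accessible region at 76.0 kb and 1 less accessible region at 45.7 kb. The other 27 genes, among them the antagonist genes Nog, Chrd and Grem1, had no linked more accessible region. The modulator genes are longer than most, with a median of 35.5 kb against 17.2 kb.

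Bbs9 was likewise set beside other genes of the BBSome and of ciliary trafficking. Of 21 genes, 2 had a linked more accessible region (9.52%, against 7.22% of all protein-coding genes), Bbs9 with 6 and Trim32, a ubiquitin ligase gene, with 1, and the region at Trim32 lies equally inside Astn2, the gene that surrounds it. Without Bbs9 it was 1 of 20 (5.00%), near the share of all genes. Bbs10, a chaperonin-like gene needed for BBSome assembly, had 1 less accessible region at 72.2 kb, the only one of the 21 with any (4.76%, against 1.99% of all genes). The other core subunit genes Bbs1, Bbs2, Bbs4, Bbs5, Bbs7, Ttc8 and Bbip1 had none in either direction. Most of these genes are far shorter than Bbs9 (median 23.2 kb), and a short gene has less room for regions inside it.

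The label of the cells was looked at through the lists alone, since they hold no expression level. Of 9 fibroblast and mesenchyme marker genes, 3 (Dcn, Prrx1 and Twist2) had a linked more accessible region and none a less accessible one, where 7.22% and 1.99% of all protein-coding genes had them. Of 20 markers of endothelium, blood, muscle, nerve and epithelium, none had a more accessible region, and 4 (Cdh5, Itgam, Nes and Pax6) had a less accessible one (against the same 7.22% and 1.99%). These counts are small. A list of changed regions does not show whether a gene is open in both genotypes, and a part of other cells in these values was not tested.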

How the data were processed

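ATAC-seq was made from 3 wild-type and 3 mutant libraries of 150 bp paired-end reads. Per the submitters' processing notes, the authors used DESeq2, featureCounts, MACS2, Bowtie2, Trimmomatic, bedtools and SAMtools with the builds mm10 and GRCm38; their versions, settings, the cutoff behind the lists and any pooling of libraries: not given in the sources used here. Deposited files are a pair of lists of base pair positions, 1 per direction, taken from their names. Depth per library is unknown.

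Starts were converted to 1-based positions. Gene spans and promoter sequences came from RefSeq tables of GRCm38.p6. The limit for linking was 100 kb. As a check of the build, 1.48% of midpoints lay within 1 kb of a gene end, against 2.70 to 3.21% after shifts of 1 or 2 Mb in either direction. The unshifted share was thus the lowest, which alone does not settle the build, and the build named in the processing notes was used. Linking was checked on planted positions. Planned exon classes and region sequences were not run, as the tables hold neither; promoters were described in their place. The members and gene lists were chosen with earlier results of these data known. Named genes are Bbs9, Bmper, protein-coding genes in or next to the window, list members with regions, and the 5 genes nearest in length to each. Alternatives changed how a region is placed, the flank, the merging of neighbours and the linking. Python 3.11.15, pandas 2.3.3 and numpy 2.4.6 were used.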

Additional observations from a re-analysis of the deposited data

How the results depend on the processing

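Counts in the window, inside Bmper and in the gap, and the density, stayed within 1.5 times their value under every placing, merging and flank tried. Inside Bbs9 the count was 5 by midpoint and 3 with neighbours within 10 kb merged. The flanks held 0 regions with a flank of 0 or 50 kb, since region 9 lies 63.9 kb past Bmper. Regions linked to BMP modulator genes numbered 8 in both directions together, 4 with links within 10 kb and 13 with links at any distance; those of the BBSome list stayed between 6 and 8. With a neighbour limit of 5 kb, chosen after seeing the data, 2 regions had a close neighbour in place of 4. No paired analysis was possible because the lists hold no values per library, and leaving out each replicate was not run for the same reason. A stricter threshold could not be tried without a score per region, and regions just short of the authors' cutoff cannot be seen.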

Other observations

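The stretch of chromosome 9 around the locus was uneven. Before region 1 no region of either list occurred over 2.07 Mb, a stretch that overlaps 67 protein-coding genes (32.4 per Mb). The 865 kb from region 1 to region 9 overlap 2 (2.31 per Mb), and Bbs9 reaches into both stretches. Past Bmper, the 613 kb to Npsr1 overlap no protein-coding gene and held 4 more accessible regions, region 9 among them; 2 of the others are 395 and 251 bp wide and lie 178 kb and 237 kb beyond the window. Less accessible regions were far away. None was listed over 22.7 Mb, from a midpoint at 14772287 to one at 37517617, a stretch that overlaps 211 protein-coding genes and held 34 more accessible regions. Less accessible regions are sparse everywhere: all of chromosome 9 holds 27 of them, against 160 more accessible ones. Over the whole less accessible list, the distance from a region to its nearest neighbour reached 59174 kb. Nothing is read from their absence here.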
